A study of Mus musculus with 26 samples.

Results

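The semaphorins, plexins and neuropilins are a family of 31 protein-coding genes in the mouse aorta libraries, selected by gene symbol alone: 20 semaphorins, 9 plexins and 2 neuropilins of 54532 gene identifiers in the count files. The study sequenced 26 aortic RNA libraries from male mice. The untreated groups, 4 libraries each, were ascending aorta of Fbn1 C1041G/+ mice, ascending aorta of wild-type (WT) littermates, descending aorta of C1041G/+ mice and descending aorta of WT littermates. In the antisense experiment, ascending aorta came from C1041G/+ mice given AGT-ASO (5 libraries) or a control ASO (5 libraries), so both antisense groups carry the mutation. The Fbn1 product, fibrillin-1, builds the microfibrils of elastic tissue, and mice with 1 C1041G copy are a germline model of Marfan syndrome. AGT-ASO is an antisense oligonucleotide that targets angiotensinogen, a liver protein from which angiotensin II is cut. Mouse ages and oligonucleotide doses are not used here. The labels do not say whether a library is 1 mouse or a pool, so p-values measure the spread between these libraries.

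Semaphorins are secreted or membrane-bound ligands first known for steering growing axons, and plexins are their signalling receptors. Most secreted class 3 semaphorins bind a plexin through a neuropilin, which also binds vascular endothelial growth factors. Sema3e is the exception in its class, since it binds Plxnd1 directly. In the cardiovascular system Sema3c and Plxnd1 are needed for normal division of the outflow tract, and Sema3e with Plxnd1 restrains the growth of vessels.

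The promoters of Sema3e, Sema3a and Sema3c are shown because these genes lie near each other on chromosome 5 and were all lower in ascending than in descending aorta. The sequences are the 250 bases upstream of the RefSeq start on the plus strand (RefSeq, GRCm38.p6), in lower case, with capitals marking GGGCGG on either strand, the GC box core bound by Sp family factors.
Sema3e, chr5:14025026-14025275: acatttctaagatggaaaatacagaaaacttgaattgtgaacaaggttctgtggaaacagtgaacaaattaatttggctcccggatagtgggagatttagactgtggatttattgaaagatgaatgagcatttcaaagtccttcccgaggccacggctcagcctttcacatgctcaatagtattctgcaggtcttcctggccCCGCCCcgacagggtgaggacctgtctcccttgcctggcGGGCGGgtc
Sema3a, chr5:13396534-13396783: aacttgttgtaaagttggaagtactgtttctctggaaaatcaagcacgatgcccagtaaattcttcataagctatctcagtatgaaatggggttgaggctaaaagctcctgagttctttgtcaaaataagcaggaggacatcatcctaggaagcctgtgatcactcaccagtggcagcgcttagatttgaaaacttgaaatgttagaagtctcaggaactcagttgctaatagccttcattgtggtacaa
Sema3c, chr5:17574566-17574815: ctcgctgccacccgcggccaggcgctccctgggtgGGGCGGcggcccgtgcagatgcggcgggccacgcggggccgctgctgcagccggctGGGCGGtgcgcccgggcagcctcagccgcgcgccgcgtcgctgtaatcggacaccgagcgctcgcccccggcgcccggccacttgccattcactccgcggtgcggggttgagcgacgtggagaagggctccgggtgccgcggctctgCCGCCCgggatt
The Sema3c stretch has 78.4% G and C, the Sema3e stretch 48.0% and the Sema3a stretch 40.8%, against a median of 52.4% over 32851 promoters of the same length. GGGCGG matched 2 times for Sema3e, 3 times for Sema3c and 0 times for Sema3a, and 32.7% of all these promoters hold at least 1 match. None of the 3 stretches held TATAAA (12.4% of all promoters), CACGTG (6.0%), TGANTCA (6.7%) or a CArG box (1.5%), all searched on both strands. These motifs do not overlap one another in the stretches shown. For Sema3a and Sema3c the RefSeq start lies inside the GENCODE gene span, so other starts exist.

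Library totals were 17171652 to 28554356 counts, and family members took 0.138% to 0.183% of them. Of the members, 30 passed the count filter in both experiments. Sema4f did not, with 0 to 11 counts per untreated library and 1 to 27 per antisense library. Levels are CPM, each library's counts scaled to a common total. Smooth muscle markers, summed over 10 genes, lay between 18166 and 31980 CPM in all groups, as the tissue label states. Fbn1 averaged 363 ± 25 CPM in mutant and 406 ± 89.3 CPM in WT ascending aorta (SD, n = 4 each), and its count does not check the label, since C1041G changes an amino acid. Agt was near the limit of detection, at 0.0961 to 1.47 CPM with AGT-ASO and 0.301 to 0.787 CPM with control ASO. Untreated and antisense libraries were normalized separately, so levels are set side by side across them and not tested.

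Per kilobase of annotated exon, secreted class 3 semaphorins were the most abundant ligand class in all groups. Their sum was 104 ± 1.73 CPM per kb in mutant ascending aorta, 107 ± 8.31 in WT ascending, 109 ± 1.77 in mutant descending and 124 ± 4.10 in WT descending (SD, n = 4 each). It was 105 ± 7.28 with AGT-ASO and 102 ± 8.83 with control ASO (SD, n = 5 each). The membrane-bound class 4 summed to 8.64 to 11.5 CPM per kb as group means, class 5 to 5.14 to 8.88, class 6 to 5.11 to 8.42, and class 7 (Sema7a alone) to 0.457 to 3.28. Among receptors the B plexins led, at 25.2 to 36.0 CPM per kb, followed by the A plexins at 13.3 to 18.7 and Plxnd1 at 7.88 to 14.2. The neuropilins together had 8.29 to 16.2 CPM per kb, and Plxnc1 had 0.278 to 1.05.

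Sema3f, a class 3 ligand that binds Nrp2, had the highest mean level in 5 of the 6 groups, with 46.0 ± 2.72 CPM per kb in mutant ascending aorta, 41.0 ± 2.48 in WT ascending and 39.8 ± 2.90 in mutant descending. In WT descending aorta it stood at 39.6 ± 2.74 CPM per kb, below Sema3c at 46.7 ± 2.24. Sema3c and Plxnb2, a receptor of class 4 semaphorins, came next in the ascending groups and lay within their spread of each other in mutant ascending aorta, at 27.8 ± 1.27 and 25.8 ± 2.75 CPM per kb. Sema3d, Sema3b, Nrp1 and Plxnd1 formed the next tier, and their means in each untreated group lay between 10.1 and 16.1 CPM per kb. Plxnb3, Sema5b and Sema4g were among the lowest, under 0.3 CPM per kb in every group.

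**Figure D1:**
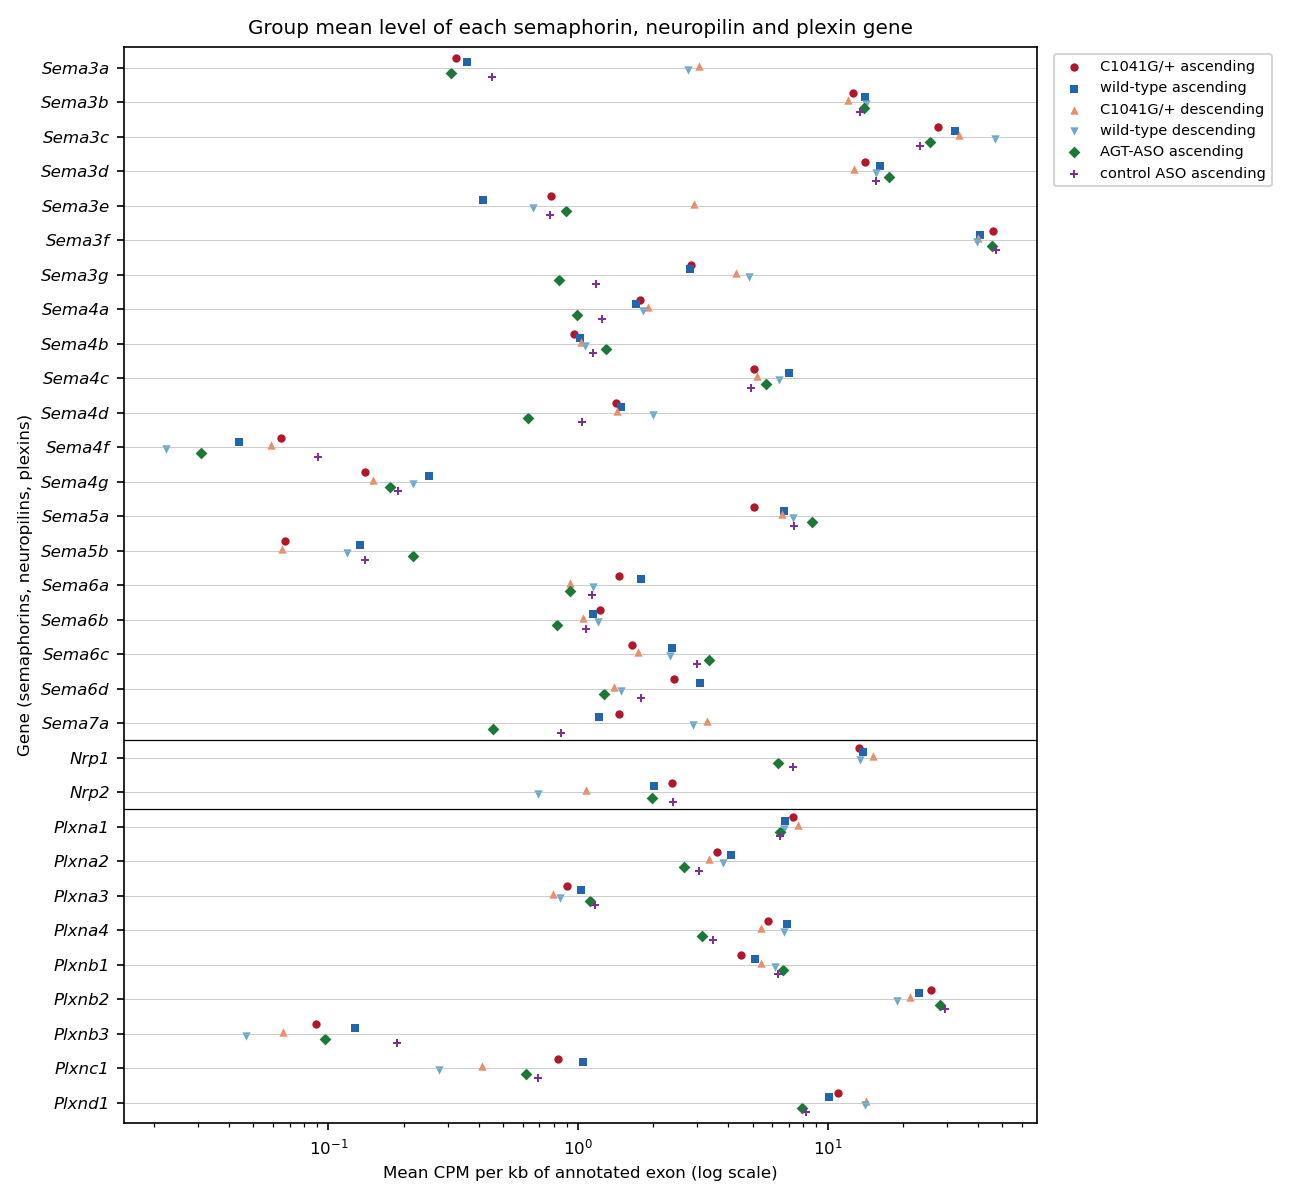
Group mean level of every family member in CPM per kb of annotated exon (log scale), 1 symbol per group, from 4 libraries for each untreated group and 5 for each antisense group. Sema3a is near 3 CPM per kb in both descending groups and under 0.5 in all ascending groups, and Sema3e stands apart in mutant descending aorta at 2.90.

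The comparison of C1041G/+ with WT ascending aorta asks what the mutation changes in the ascending aorta, where aneurysm forms in this model. Of the 30 members tested, 1 was higher in mutants, Sema3e, and 0 were lower, beside 1.18% of all 15645 genes called higher, 1% called lower and 2.19% in either direction. The median log2 fold change of the members was -0.17, against -0.01 for all genes, and 20 of the 30 values were negative. Groups did not overlap for 3 members (Sema3e, Sema6d and Plxna2), beside 9.5% of all genes. At an unadjusted p under 0.05 there were 8 members, beside 16.2% of all genes. DESeq2 called 2 members, Sema3e and Sema6d. The heart muscle marker sum was 330 to 757 CPM in mutants and 308 to 1424 CPM in WT mice. The cartilage marker sum was 170 to 231 and 153 to 444 CPM. Both sums overlapped, but the median log2 fold changes of these lists were -1.40 and -1.22. EdgeR called 0 of 19 heart muscle markers higher and 1 lower, and 1 of 12 cartilage markers higher and 2 lower. Marker sums of 3 other cell types did not overlap between these groups. Fibroblast markers were at 4640 to 5511 CPM in mutants and 5708 to 7672 CPM in WT mice, macrophage markers at 1117 to 1413 and 856 to 983 CPM, and Schwann and neural markers at 234 to 255 and 273 to 325 CPM. Their part in the genotype values was not tested.

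In descending aorta, Sema3c was lower in mutants, and Sema3e was higher, a rise already known when the family was chosen. Of all genes, 0.531% were called lower, 0.678% higher and 1.21% in either direction. The members' median log2 fold change was -0.12, against -0.00 for all genes. The libraries of the 2 genotypes did not overlap for 6 members (Sema3c, Sema3d, Sema3e, Sema4d, Nrp2 and Plxnc1), beside 7.29% of all genes. DESeq2 called 4 members here, the added ones being Sema3d (adjusted p = 0.0255) and Nrp2 (adjusted p = 0.0416). Both the 6 and the 4 members include Sema3e, whose rise was known beforehand. The endothelial and cartilage marker sums did not overlap between these groups. Endothelial markers were at 2347 to 2660 CPM in mutants and 2717 to 3600.0 CPM in WT mice, and cartilage markers at 140 to 179 and 86.4 to 131 CPM. The cartilage markers did not rise as 1 list. Their median log2 fold change was -0.14, and edgeR called 1 of 12 higher and 0 lower. Acan averaged 59.3 CPM in mutants and 25.1 CPM in WT mice, and Comp 83.6 and 57.5 CPM. Hapln1 averaged 5.65 and 8.2 CPM, and Chad 0.696 and 2.996 CPM. The part of the endothelial and cartilage markers in the genotype values was not tested.

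The family differed more by region, in main fits that treated the libraries as unpaired. In mutants, Sema6a, Sema6d, Nrp2 and Plxnc1 were higher in ascending than in descending aorta and Sema3a, Sema3c, Sema3e and Sema7a lower, 26.7% of 30 members against 9.92% of all genes (6.41% higher, 3.51% lower). In WT mice, those 8 were called in the same direction, with Plxnb2 and Plxnb3 also higher and Plxnd1 also lower, 36.7% of 30 members against 11.1% of all genes (7.82% higher, 3.31% lower). The 8 shared calls are 100% of the mutant calls and 72.7% of the WT calls, and over all genes the 1079 calls shared in direction are 69.5% and 62.0%. The mutant share and the shared calls count Sema3e, whose mutant descending values were known when the family was chosen. The median over the members was -0.03 in mutants and 0.03 in WT mice, against -0.01 over all genes in each. No member passed the test of the genotype by region interaction in the main edgeR fit, beside 0.00639% of all genes (1 gene). In that fit 2 members had an unadjusted p under 0.05, beside 5.08% of all genes. DESeq2 called 1 member, Sema3e, and limma-voom called 0. EdgeR also called Sema3e with the library number as a fixed replicate block, with no count filter and without WT ascending replicate 5. The interaction uses those mutant descending values of Sema3e too.

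Other tissues moved with region. Mesothelial markers, summed over 11 genes, were at 466 to 731 CPM in mutant ascending and 409 to 561 in WT ascending aorta, against 29.2 to 47.2 in mutant descending and 24.6 to 36.0 in WT descending aorta. The sum over 20 heart muscle markers was 330.4 to 757 CPM in mutant ascending and 308 to 1424 in WT ascending aorta, against 134 to 254 in mutant descending and 79.4 to 150.4 in WT descending aorta. Ryr2, which makes up most of the descending sum, averaged 131 CPM in mutant ascending and 102 in WT ascending aorta, against 155 in mutant descending and 92.4 in WT descending aorta. Tnnt2 averaged 163 and 229.5 CPM in mutant and WT ascending aorta, against 3.82 and 5.55 CPM in mutant and WT descending aorta. Nppb was at 0 in every descending library. The sum over 12 endothelial markers was 1487 to 2338 CPM in mutant ascending and 1677 to 2236 in WT ascending aorta, against 2347 to 2660 in mutant descending and 2717 to 3600.0 in WT descending aorta. Lymphatic endothelial markers, summed over 6 genes, were at 135 to 173 CPM in mutant ascending and 116 to 145 in WT ascending aorta, against 83.8 to 119 in mutant descending and 42.8 to 108 in WT descending aorta. Lyve1 makes up most of the descending sum. Its means were 71.9 and 56.3 CPM in mutant and WT ascending aorta, against 75.8 and 64.1 CPM in mutant and WT descending aorta. The means of Prox1, Flt4, Mmrn1 and Reln were higher in ascending aorta in both genotypes, and Ccl21a was at or near 0. Cartilage markers, summed over 14 genes, were at 170 to 231 CPM in mutant ascending and 153 to 444 in WT ascending aorta, against 140 to 179 in mutant descending and 86.4 to 131 in WT descending aorta. Of 11 Schwann and neural markers tested, edgeR called 4 higher in mutant ascending aorta and 7 in WT ascending aorta, and 0 lower. Their median log2 fold changes were 1.08 and 1.43. Pmp22, which makes up most of that sum, averaged 202 and 245 CPM in mutant and WT ascending aorta. In mutant and WT descending aorta it averaged 197 and 213 CPM. Adipocyte markers had medians of -1.05 in mutants and -0.72 in WT mice. The part of all these markers in the region results was not tested. In bulk tissue, fewer cells of a type and less RNA per cell cannot be told apart.

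**Figure D2:**
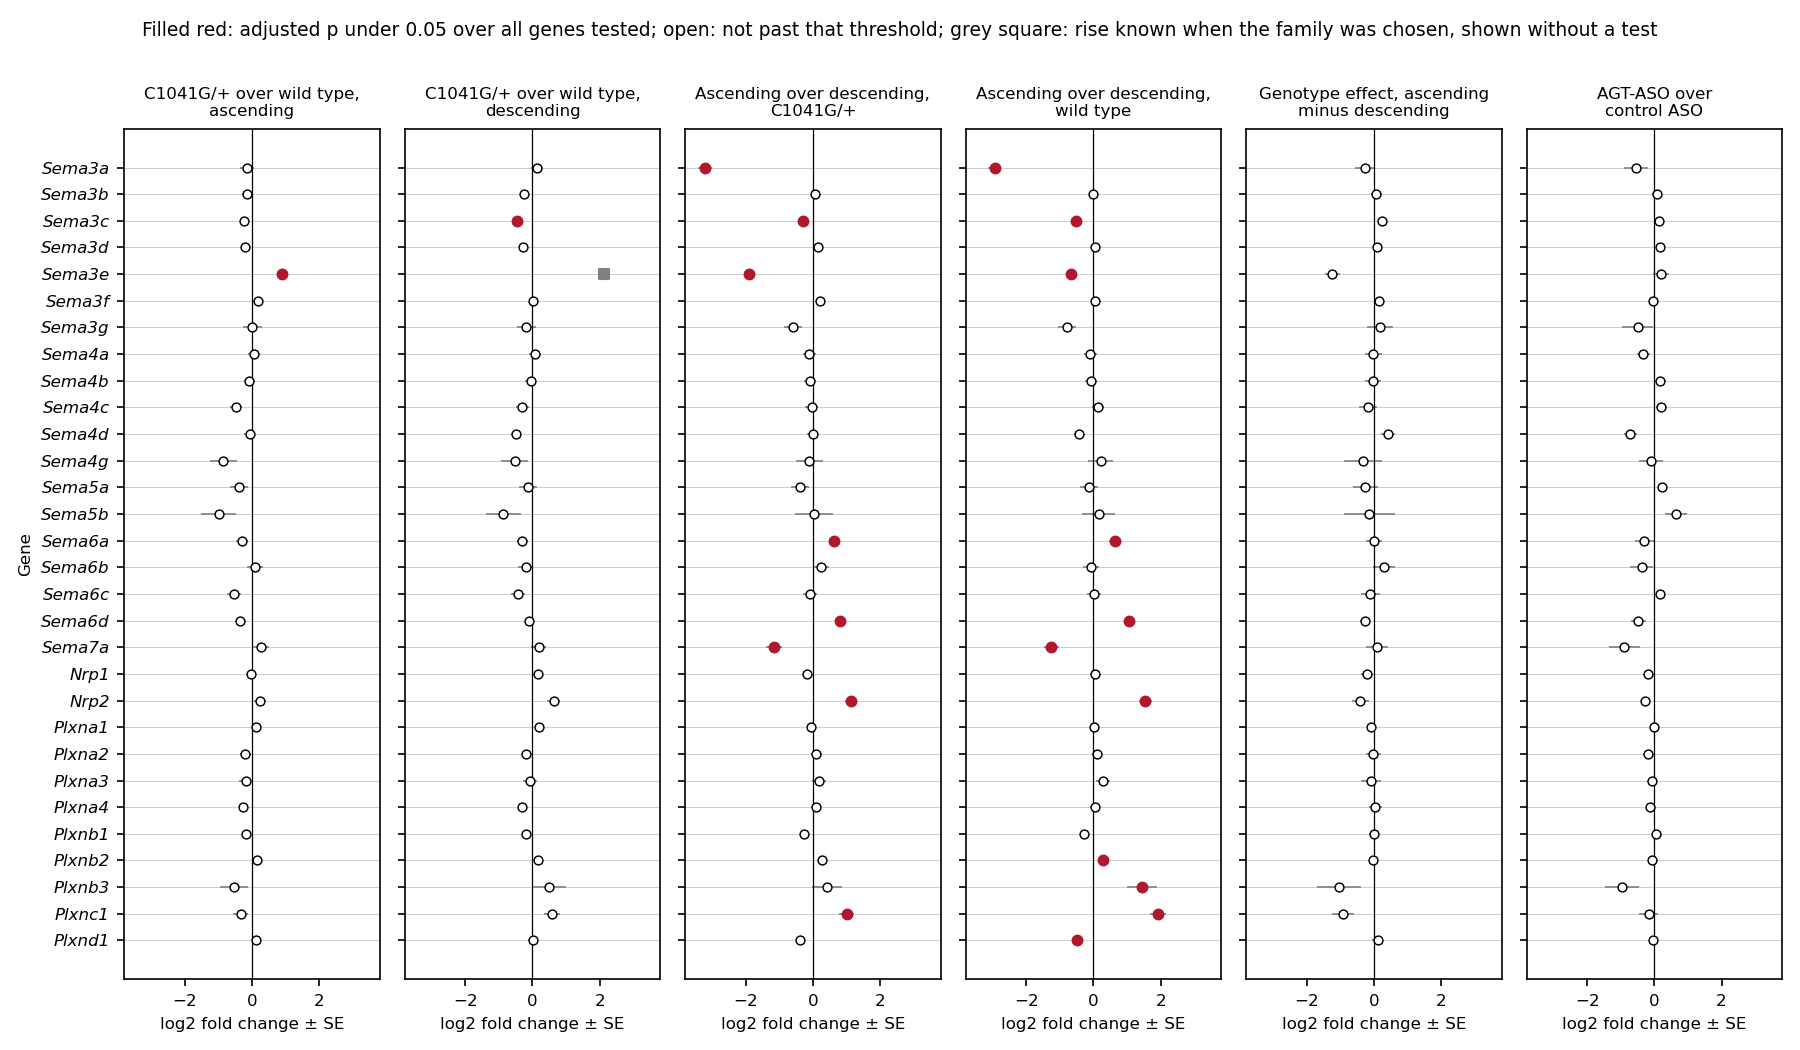
Log2 fold change ± SE of the 30 tested members (rows) in the 6 comparisons (columns), first-named group over the second; filled red points have an adjusted p under 0.05 over all genes, and the grey square is the Sema3e rise shown without a test. Region comparisons hold most of the red points, and the AGT-ASO and interaction columns hold none.

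Sema3e (chr5:14025276-14256689, GRCm38), the ligand of Plxnd1, was higher in mutants in both regions. In ascending aorta it had 7.39, 6.69, 7.15 and 7.61 CPM in mutant libraries 2, 4, 6 and 8, against 4.80, 4.55, 2.85 and 3.31 CPM in WT libraries 1, 3, 5 and 7. Every mutant library was above every WT library. The log2 fold change was 0.89 ± 0.16 (SE), 1.86-fold, with an adjusted p of 0.00525 by the edgeR quasi-likelihood test, and the call held in all 15 alternatives. In descending aorta the mutant libraries had 33.1, 25.5, 25.8 and 23.4 CPM and the WT libraries 6.15, 6.91, 5.24 and 6.27 CPM. The groups did not overlap, and all 4 mutant values were far above all WT values. Its log2 fold change was 2.13 ± 0.15, given as a description because this rise was known when the family was chosen.

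Sema3e was also lower in ascending than in descending aorta in each genotype. The log2 fold change was -1.90 ± 0.15 (adjusted p = 9.33e-08) in mutants, a contrast that uses the same mutant descending libraries as the known rise. In WT mice it was -0.66 ± 0.16 (adjusted p = 0.00961), and 0.0608 when only the compared groups were fitted. The genotype effect differed between regions by -1.24 ± 0.22, ascending minus descending, with an adjusted p of 0.0849. This contrast shares those libraries too. With the library number as a fixed replicate block the adjusted p was 0.0190, and with a random block 0.0609. It was 0.0382 without WT ascending replicate 5, and ranged from 0.000797 to 0.235 over 22 alternatives. In the antisense experiment Sema3e had 8.03, 9.14, 6.71, 6.45 and 11.1 CPM with AGT-ASO and 10.7, 8.09, 5.22, 8.01 and 3.78 CPM with control ASO. The groups overlapped, and the log2 fold change was 0.20 ± 0.24 (adjusted p = 0.784).

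Sema3a (chr5:13125414-13602565), the repellent ligand that signals through Nrp1 and A plexins, had the widest regional difference of the family. Ascending libraries held 6.49, 3.32, 4.86 and 3.3 CPM in mutants, against 51.3, 29.9, 36.8 and 51.1 CPM in mutant descending libraries. In WT mice, ascending libraries held 4.64, 4.68, 5.25 and 5.37 CPM and descending libraries 39.9, 40.8, 37.6 and 35.2 CPM. No ascending library came near a descending one. Log2 fold changes were -3.22 ± 0.20 in mutants (adjusted p = 1.07e-08) and -2.94 ± 0.20 in WT mice (adjusted p = 2.04e-08). The genotype difference was -0.14 ± 0.21 for the ascending region (adjusted p = 0.796) and 0.14 ± 0.18 for the descending region (adjusted p = 0.864). AGT-ASO libraries held 5.24, 5.02, 2.78, 4.79 and 3.65 CPM and control ASO libraries 2.70, 5.51, 11.8, 8.01 and 3.48 CPM. Those groups overlapped (log2 fold change -0.54 ± 0.35, adjusted p = 0.560).

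Sema3c (chr5:17574281-17730268), the ligand needed for outflow tract division, was lower in mutant descending aorta. Mutant libraries had 234, 229, 245 and 255 CPM, against 343, 342, 339.8 and 309.9 CPM in WT libraries. The highest mutant value lay below the lowest WT value. This was a log2 fold change of -0.47 ± 0.08 (adjusted p = 0.00598). In ascending aorta the mutant libraries had 193, 191, 198 and 211 CPM and the WT libraries 269.6, 195, 226 and 236 CPM, which overlapped (log2 fold change -0.22 ± 0.08, adjusted p = 0.187). The difference between these genotype effects was 0.25 ± 0.12 (adjusted p = 0.966).

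By region, Sema3c was lower in ascending aorta by -0.53 ± 0.08 in WT mice (adjusted p = 0.000230) and by -0.28 ± 0.08 in mutants (adjusted p = 0.0393). The mutant call was lost in 7 fits that each left out 1 library, with an adjusted p of 0.106 without ascending replicate 2, 0.105 without 4 and 0.0891 without 6. Without descending replicates 2, 4, 6 and 8 it was 0.0666, 0.0563, 0.0909 and 0.125, and with no count filter 0.0575. With AGT-ASO, Sema3c had 220.0, 172, 159.6, 186 and 182 CPM and with control ASO 198, 166, 169.9, 150.02 and 155 CPM. These overlapped, and the log2 fold change was 0.13 ± 0.09 (adjusted p = 0.582).

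Of the other secreted ligands, Sema3d had 116, 99.97, 107 and 116 CPM in mutant descending libraries, against 136, 136, 135 and 129 CPM in WT descending libraries. The groups did not overlap, but the difference did not pass the edgeR test (log2 fold change -0.29 ± 0.08, adjusted p = 0.0904). Sema3b, Sema3f and Sema3g passed no test by edgeR without a block. Sema3f averaged 239 ± 14.1 CPM in mutant ascending and 207 ± 15.1 CPM in mutant descending aorta (SD, n = 4 each), with an adjusted p of 0.0424 in the random replicate block. Sema3g had 12.7 ± 4.42 CPM in WT ascending and 22 ± 3.86 CPM in WT descending aorta, with an adjusted p of 0.0872 without a block and 0.0284 with the random block.

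**Figure D3:**
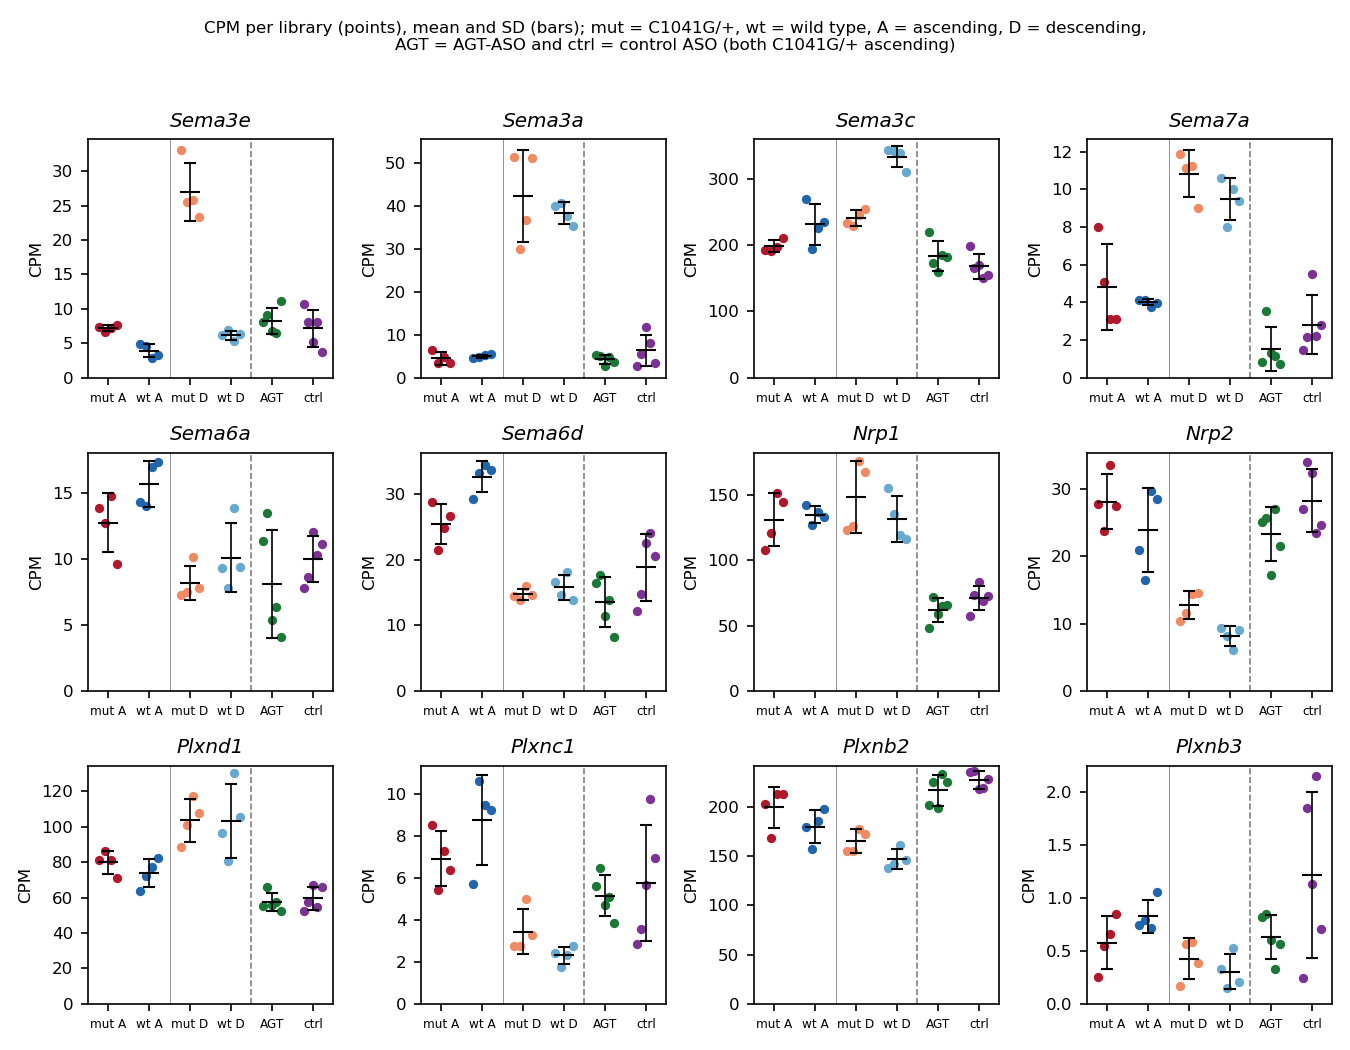
CPM of 12 members in every library (points), with group mean and SD (bars), for mutant and WT ascending, mutant and WT descending, AGT-ASO and control ASO aorta from left to right. Sema3e is at 23.4 to 33.1 CPM in mutant descending libraries and at most 11.1 CPM elsewhere, and Sema3a separates the regions without overlap.

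The genes of Sema3d, Sema3a, Sema3e and Sema3c lie in this order on the plus strand of chromosome 5, within chr5:12383385-17730268 (5.35 Mb). This interval was chosen after the values were seen, so its genes are described and not tested as a set. It holds 77 annotated genes, 21 of them protein-coding, and 8 passed the count filter. By region the log2 fold change of Sema3d was 0.15 ± 0.08 in mutants and 0.05 ± 0.08 in WT mice (adjusted p = 0.327 and 0.810). Gm43719, a transcript that starts downstream of the Sema3a end (chr5:13604035-13606233) on the same strand, was lower in ascending aorta like Sema3a, by -3.05 ± 0.35 in mutants (adjusted p = 8.92e-06) and -3.12 ± 0.35 in WT mice (adjusted p = 5.16e-06). Hgf, the ligand of the receptor Met, was higher in ascending aorta, by 2.06 ± 0.34 in mutants (adjusted p = 0.000418) and 1.93 ± 0.34 in WT mice (adjusted p = 0.000695). Pclo and Cacna2d1 passed no test.

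**Figure D4:**
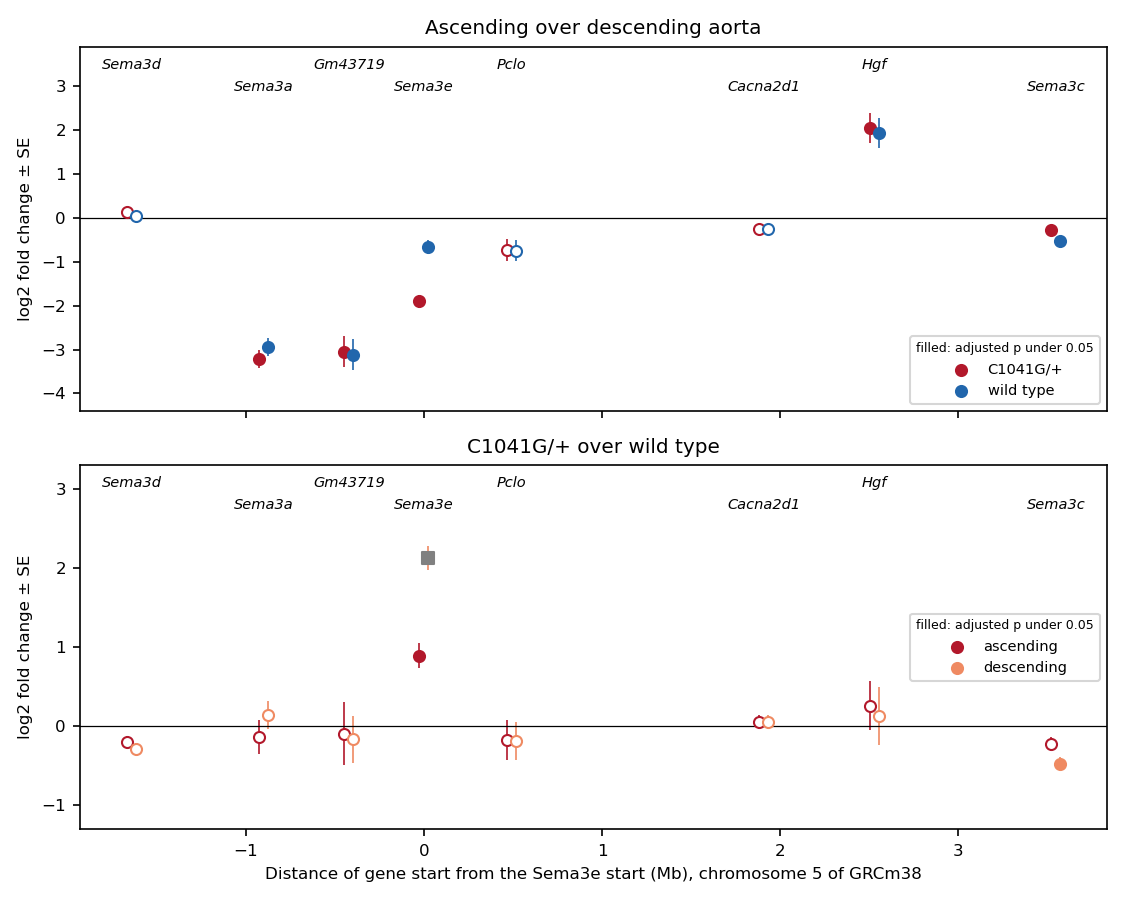
Log2 fold change ± SE of the 8 tested genes in the Sema3d to Sema3c interval of chromosome 5, by distance of the gene start from the Sema3e start (Mb); top, ascending over descending aorta, and bottom, C1041G/+ over WT. Sema3a and Gm43719 lie near -3 in both genotypes while Hgf lies near 2, and by genotype Sema3e stands above its neighbours.

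Among membrane-bound ligands, Sema6d, which binds Plxna1, was higher in ascending aorta. It had 28.8, 21.5, 24.8 and 26.7 CPM in mutant ascending and 14.4, 13.8, 16 and 14.6 CPM in mutant descending libraries. WT mice had 29.2, 33.3, 34.5 and 33.7 CPM in ascending and 16.6, 14.5, 18.1 and 13.8 CPM in descending libraries. The regions did not overlap in either genotype. Log2 fold changes were 0.79 ± 0.11 in mutants (adjusted p = 4.30e-05) and 1.05 ± 0.10 in WT mice (adjusted p = 1.32e-06). All mutant ascending values also lay below all WT ascending ones, a log2 fold change of -0.36 ± 0.10 with an adjusted p of 0.0786 by edgeR and 0.0340 by DESeq2.

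Sema6a, a ligand of Plxna2 and Plxna4, had 13.9, 12.7, 14.8 and 9.66 CPM in mutant ascending and 7.31, 7.48, 10.1 and 7.80 CPM in mutant descending libraries. WT mice had 14.4, 14, 17 and 17.4 CPM in ascending and 9.36, 7.78, 13.9 and 9.38 CPM in descending libraries. Only the mutant groups overlapped, through ascending library 8 and descending library 6. It differed by a log2 fold change of 0.64 ± 0.17 in both mutants (adjusted p = 0.0222) and WT mice (adjusted p = 0.0186). Each call was lost in 5 fits that left out 1 library. The adjusted p in mutants was 0.0642 and 0.0714 without ascending replicates 2 and 6, and 0.0672, 0.0657 and 0.0615 without descending replicates 2, 4 and 8. In WT mice it was 0.0540 and 0.0607 without ascending replicates 5 and 7, and 0.0531, 0.0715 and 0.0531 without descending replicates 1, 3 and 7.

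Sema7a, a ligand anchored to the membrane by a lipid, was lower in ascending aorta. It had 7.99, 5.06, 3.11 and 3.10 CPM in mutant ascending and 11.9, 11.2, 11.3 and 9.01 CPM in mutant descending libraries. In WT mice it had 4.11, 4.11, 3.77 and 3.98 CPM in ascending and 10.6, 7.98, 10.02 and 9.38 CPM in descending libraries. The regions did not overlap, with log2 fold changes of -1.16 ± 0.23 in mutants (adjusted p = 0.00207) and -1.25 ± 0.23 in WT mice (adjusted p = 0.000979). Its antisense values were 0.817, 3.55, 1.31, 1.12 and 0.731 CPM with AGT-ASO and 1.45, 2.15, 5.50, 2.18 and 2.77 CPM with control ASO, which overlapped (adjusted p = 0.433).

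Sema4d, a ligand of Plxnb1 also present on lymphocytes, passed no edgeR test without a block and is given because its groups separated in the antisense and descending comparisons, a choice made after its values were seen. It had 5.38, 5.59, 4.48, 5.58 and 3.15 CPM with AGT-ASO, against 6.27, 7.48, 9.59, 6.19 and 10.4 CPM with control ASO. In descending aorta it had 10.6, 10.8, 13.1 and 9.45 CPM in mutants, against 15.2, 13.5, 18 and 14.8 CPM in WT mice. The log2 fold change was -0.72 ± 0.20 with AGT-ASO (adjusted p = 0.175) and -0.49 ± 0.15 by genotype (adjusted p = 0.176). By region in WT mice it was -0.43 ± 0.15, with an adjusted p of 0.0926 without a block and 0.0257 with the fixed replicate block. Lymphocyte markers, summed over 12 genes, were at 7.6 to 16.7 CPM with AGT-ASO and 8.3 to 16.8 CPM with control ASO. They were at 20.8 to 54.8 CPM in mutant descending and 20.5 to 39.9 CPM in WT descending aorta.

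Sema4a, Sema4b, Sema4c, Sema4g, Sema5a, Sema5b, Sema6b and Sema6c passed no edgeR test without a block. Sema5a, a ligand of Plxnb3, averaged 94.8 ± 39.7 CPM in mutant ascending and 123 ± 35.9 CPM in mutant descending aorta (SD, n = 4 each), with an adjusted p of 0.0299 in the fixed block. Sema6c had 9.81 ± 3.37 CPM in mutant and 14.2 ± 1.78 CPM in WT ascending aorta (log2 fold change -0.53 ± 0.20, adjusted p = 0.200). Sema4c shares 334 bases of exon with a gene on the opposite strand, and Plxna1, Plxna4 and Plxnb1 share 970, 110 and 257. The strand setting is unknown, so their counts may include reads of those genes.

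Of the co-receptors, Nrp2, which binds Sema3f and Sema3c, differed by region and Nrp1 did not pass a test. Nrp2 had 27.8, 23.8, 33.7 and 27.4 CPM in mutant ascending and 10.3, 11.6, 14.4 and 14.6 CPM in mutant descending libraries. WT mice had 21, 16.6, 29.7 and 28.6 CPM in ascending and 9.36, 8.18, 6.12 and 9.07 CPM in descending libraries. All ascending values lay above all descending ones in both genotypes. Log2 fold changes were 1.14 ± 0.18 in mutants (adjusted p = 0.000295) and 1.55 ± 0.19 in WT mice (adjusted p = 1.35e-05). Mutant descending libraries also lay above WT descending ones, with a log2 fold change of 0.64 ± 0.19 and an adjusted p of 0.137 by edgeR. With AGT-ASO Nrp2 had 25.2, 25.7, 17.2, 27.1 and 21.5 CPM and with control ASO 27.1, 34.1, 32.4, 23.5 and 24.6 CPM, which overlapped (log2 fold change -0.28 ± 0.13, adjusted p = 0.397).

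Nrp1, the receptor of Sema3a and of VEGF-A, had 108, 121, 152 and 144 CPM in mutant ascending and 143, 127, 137 and 133 CPM in WT ascending libraries. Its descending values were 123, 126, 176 and 168 CPM in mutants and 156, 135, 119.6 and 116 CPM in WT mice. All groups overlapped, and log2 fold changes were -0.04 ± 0.13 and 0.17 ± 0.13 by genotype for the ascending and descending region (adjusted p = 0.911 and 0.714). By region they were -0.18 ± 0.13 in mutants and 0.04 ± 0.13 in WT mice (adjusted p = 0.514 and 0.934). The antisense libraries had 48.3, 72.0, 58.9, 64.7 and 65.4 CPM with AGT-ASO and 57.2, 73.7, 83.1, 68.6 and 72.7 CPM with control ASO. These overlapped too (log2 fold change -0.20 ± 0.11, adjusted p = 0.462). The endothelial marker sum in those libraries was 251 to 522 CPM with AGT-ASO and 362 to 480.4 CPM with control ASO, and its part in the Nrp1 level was not tested.

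Among receptors, Plxnd1, which binds Sema3e, had 81.3, 86.4, 81.5 and 71.0 CPM in mutant ascending and 88.7, 101, 117 and 108 CPM in mutant descending libraries. WT mice had 63.8, 72.4, 77.4 and 82.5 CPM in ascending and 96.6, 80.8, 131 and 105 CPM in descending libraries. The mutant regions did not overlap and the WT regions did. The log2 fold change was -0.48 ± 0.12 in WT mice (adjusted p = 0.0152), and the call was lost without ascending replicate 1 (0.0528) and without descending replicate 5 (0.0683). In mutants it was -0.37 ± 0.12, with an adjusted p of 0.0697 without a block, 0.0208 with the fixed block and 0.0452 without descending replicate 2. The genotype difference of Plxnd1 was 0.11 ± 0.12 for the ascending region (adjusted p = 0.704) and 0.01 ± 0.12 for the descending region (adjusted p = 0.995). AGT-ASO libraries had 55.5, 66.0, 55.9, 57.7 and 52.5 CPM and control ASO libraries 52.6, 57.7, 67.1, 55.0 and 66.0 CPM, which overlapped (log2 fold change -0.05 ± 0.08, adjusted p = 0.842).

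Plxnc1, the receptor of Sema7a, was higher in ascending aorta, where Sema7a was lower. It had 8.54, 5.44, 7.31 and 6.41 CPM in mutant ascending and 2.75, 2.78, 5.02 and 3.26 CPM in mutant descending libraries. In WT mice it had 5.71, 10.6, 9.48 and 9.25 CPM in ascending and 2.45, 1.78, 2.33 and 2.74 CPM in descending libraries. The regions did not overlap, and log2 fold changes were 1.00 ± 0.23 in mutants (adjusted p = 0.00706) and 1.92 ± 0.24 in WT mice (adjusted p = 1.52e-05). The difference between the genotypes' regional changes was -0.91 ± 0.33 and did not pass the test (adjusted p = 0.760).

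Plxnb2 had 203, 168, 213 and 213 CPM in mutant ascending and 155, 156, 178 and 173 CPM in mutant descending libraries, with 179, 157, 185 and 198 CPM in WT ascending and 138, 142, 161 and 146 CPM in WT descending libraries. The regions overlapped in both genotypes. The log2 fold change was 0.29 ± 0.09 in WT mice (adjusted p = 0.0410), lost in 6 fits that left out 1 library. The adjusted p was 0.0754, 0.0946 and 0.142 without ascending replicates 1, 5 and 7, and 0.107, 0.100 and 0.0756 without descending replicates 1, 3 and 7. It was 0.0658 with only the compared groups in the fit. In mutants it was 0.27 ± 0.09, with an adjusted p of 0.0671 without a block, 0.0151 with the fixed block and 0.0134 without ascending replicate 4.

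Plxnb3 was near the limit of detection, at 0.747, 0.795, 0.714 and 1.05 CPM in WT ascending and 0.326, 0.152, 0.524 and 0.211 CPM in WT descending libraries. The WT regions did not overlap, and the log2 fold change was 1.45 ± 0.46 with an adjusted p of 0.0499. That call was lost in 7 of the 8 fits that left out 1 WT library. The adjusted p was 0.0723, 0.0756, 0.0736 and 0.142 without ascending replicates 1, 3, 5 and 7, and 0.0903, 0.154 and 0.134 without descending replicates 1, 3 and 7, with 0.0987 when no count filter was used. In mutants Plxnb3 had 0.256, 0.544, 0.655 and 0.851 CPM in ascending and 0.169, 0.567, 0.587 and 0.390 CPM in descending libraries, which overlapped (adjusted p = 0.709). The A plexins, which transduce class 3 and class 6 signals, and Plxnb1 passed no test in the main edgeR fit. Without WT descending replicate 7, Plxna4 had an adjusted p of 0.0330 by genotype in descending aorta.

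AGT-ASO against control ASO, in mutant ascending aorta, asks what lowering angiotensinogen changes there. The edgeR test called 0 of 30 members, beside 0.0668% of all genes (10 of 14981, with 0.0134% higher and 0.0534% lower); 2 members had an unadjusted p under 0.05, beside 12.7% of all genes, and DESeq2 called 1, Sema4d (adjusted p = 0.0384), of 289 genes in all. The median log2 fold change over the members was -0.09, against -0.01 over all genes. Groups did not overlap for 1 member, Sema4d, beside 2.46% of all genes. The heart muscle marker sum was 349 to 865 CPM with AGT-ASO and 821 to 2014 CPM with control ASO, so the groups overlapped (medians 567 and 1515 CPM). Of these markers 18 were tested by edgeR and 0 were called. When a heart muscle score (the mean log2 CPM of these markers) was added to the fit, the log2 fold change was 0.11 for Sema3a, -0.27 for Sema3e and 0.16 for Plxnd1, each opposite in sign to the value without it. With the score, edgeR called 9 genes and no member, and the log2 fold change was -0.08 for Nrp1 and -0.26 for Nrp2.

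Of 51 genes that act with the family (intracellular regulators, kinases, VEGF ligands and receptors, and other semaphorin receptors), 48 were tested in the untreated libraries. In ascending aorta 2 were called, both higher in mutants, beside 2.19% of all genes, and DESeq2 called 7 higher and 1 lower, with 779 genes called in all. Rnd1, a small GTPase that binds plexins, averaged 24.8 ± 6.43 CPM in mutants and 12.5 ± 1.68 CPM in WT mice (SD, n = 4 each; log2 fold change 0.99 ± 0.15, adjusted p = 0.00125). Rnd3, of the same GTPase group, averaged 231 ± 51.0 CPM in mutants and 149 ± 18.3 CPM in WT mice (log2 fold change 0.64 ± 0.15, adjusted p = 0.0397). In descending aorta 1 was higher, Rnd3 (log2 fold change 0.66 ± 0.15, adjusted p = 0.0464), and 0 were lower, beside 1.21% of all genes. The Rnd1 call held in all 15 alternatives. For Rnd3 the call was lost in ascending aorta without WT replicates 1, 3, 5 or 7 or mutant replicates 2 or 6 (adjusted p of 0.0578 to 0.108), and with no count filter, the compared groups alone or the heart score (0.0853, 0.0599 and 0.159). In descending aorta it was lost with no count filter (0.113) and without WT replicates 1, 3 or 7 or mutant replicates 2, 4, 6 or 8 (0.0674 to 0.155). The list's median was 0.08 in ascending and 0.11 in descending aorta, against -0.01 and -0.00 over all genes.

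By region, 7 of the 48 partners were higher and 2 lower in ascending aorta of mutants, and 8 were higher and 1 lower in WT mice, beside 9.92% and 11.1% of all genes. With a random and a fixed replicate block the counts were 10 higher and 2 lower, and 10 and 3, in mutants, and 10 higher and 1 lower, and 11 and 2, in WT mice. The list's median was 0.11 in mutants and 0.08 in WT mice, against -0.01 over all genes in each. Kdr, the main VEGF receptor of endothelium, averaged 48.2 ± 5.98 CPM in mutant ascending and 4.73 ± 0.687 CPM in mutant descending aorta (log2 fold change 3.35 ± 0.25, adjusted p = 1.37e-07). In WT mice Kdr averaged 38.1 ± 5.99 CPM in ascending and 4.49 ± 2.55 CPM in descending aorta (log2 fold change 3.08 ± 0.25, adjusted p = 3.28e-07). The endothelial markers did not move as 1 list, in examples chosen after their values were seen. Pecam1 averaged 685 CPM in mutant ascending and 970.3 CPM in mutant descending aorta, with 744 and 1304 CPM in WT ascending and WT descending aorta. Emcn averaged 45.6 CPM in mutant ascending and 21.8 CPM in mutant descending aorta, with 55.7 and 13.2 CPM in WT ascending and WT descending aorta. Vegfa, the ligand shared by Kdr and Nrp1, was lower in ascending aorta, by -1.06 ± 0.09 in mutants (adjusted p = 3.87e-07) and -0.51 ± 0.09 in WT mice (adjusted p = 0.000887). Mst1r and Met, receptors that associate with B plexins, were higher in both genotypes, with log2 fold changes of 1.44 and 0.87 in mutants and 1.26 and 0.92 in WT mice. With AGT-ASO edgeR called 1 of 49 partners higher and 1 lower, beside 0.0134% and 0.0534% of all genes. The higher one was Trem2, a myeloid receptor that associates with Plxna1 (log2 fold change 1.09 ± 0.18, adjusted p = 0.0378). The lower one was Vegfa (-0.53 ± 0.09, adjusted p = 0.0378). Both calls were lost without AGT-ASO replicates 15, 18 or 19 or control replicates 12, 13, 16 or 17 (0.0540 to 0.130), and that of Vegfa also without AGT-ASO replicate 20 (0.0654) or with the heart score (0.385). Macrophage markers, summed over 12 genes, were at 386 to 749 CPM with AGT-ASO and 395 to 539.6 CPM with control ASO (medians 621 and 505 CPM), and their part in the Trem2 value was not tested. In the interaction edgeR called 0 of 48 partners, beside 0.00639% of all genes. At an unadjusted p under 0.05 there were 5 partners, beside 5.08% of all genes. DESeq2, limma-voom and both replicate blocks also called 0 partners.

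Of 48 other guidance cues and receptors (ephrins, Eph receptors, Slits, Robos, netrin receptors and Flrt proteins), 37 were tested. Slit3, a secreted ligand of Robo receptors, averaged 541 ± 48.1 CPM in mutant and 331 ± 58.0 CPM in WT ascending aorta (log2 fold change 0.71 ± 0.13, adjusted p = 0.00500). In descending aorta Slit3 averaged 411 ± 25.5 CPM in mutants and 249 ± 39.1 CPM in WT mice (log2 fold change 0.72 ± 0.13, adjusted p = 0.00546). Epha1, an ephrin receptor, was lower in mutant ascending aorta (log2 fold change -0.74 ± 0.13, adjusted p = 0.00500). By genotype edgeR called 1 of the 37 higher and 1 lower in ascending aorta, beside 2.19% of all genes in either direction. In descending aorta it called 1 higher and 0 lower, beside 1.21% of all genes. By region 11 were higher and 3 lower in ascending aorta of mutants, and 14 higher and 2 lower in WT mice, beside 9.92% and 11.1% of all genes. With a random and a fixed replicate block they were 12 higher and 6 lower, and 12 and 8, in mutants, and 15 higher and 3 lower, and 14 and 5, in WT mice. Epha3 was lower in ascending aorta, by -2.32 ± 0.17 in mutants and -2.39 ± 0.18 in WT mice. The list's median by genotype was -0.11 in ascending and 0.12 in descending aorta, and by region 0.09 in mutants and 0.20 in WT mice. With AGT-ASO edgeR called 0 of 37, beside 0.0668% of all genes, and DESeq2 called 1. At an unadjusted p under 0.05 there were 9 (beside 12.7% of all genes), and the median was -0.08.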

How the data were processed

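RNA-seq of 26 mouse aorta libraries in 6 groups, taken from the labels, was used. Each deposited file gives raw counts for Ensembl genes of 1 library, whole numbers with no normalization. The submitters' processing notes name fastp, STAR 2.6.1d and mm10, while the tool, strand setting and annotation used for counting are unknown here. GENCODE M21 (GRCm38, the same build) named 54495 of 54532 identifiers and gave exon lengths.

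The family, the gene lists and the interval on chromosome 5 were chosen with earlier results of these data known. Members with an adjusted p under 0.05 in at least 1 comparison, and Sema3e, Sema3a, Plxnd1, Nrp1 and Nrp2 in any case, are given with the value in every library. From a list, at most 4 genes with the lowest p in a comparison are named.

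Main tests used edgeR (version 4.0.16, R 4.3.3) with its quasi-likelihood F test, TMM, filterByExpr and robust dispersions, two-sided, with Benjamini-Hochberg adjustment over all genes of a comparison and a threshold of 0.05. The 16 untreated libraries were fitted together (15645 genes, 12 residual degrees of freedom) and the 10 antisense libraries apart (14981 genes, 8). CPM uses TMM-scaled totals; errors are SD of CPM and SE of log2 fold changes. The script was tested on simulated data.

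Alternatives were DESeq2 1.42.0, RLE factors, no count filter, each library left out, the compared groups alone, the heart muscle score as a covariate, and replicate blocks (limma-voom 3.58.1 random, edgeR fixed). Library numbers 1 to 8 are shared by ascending and descending libraries. After group means were removed, the 8 same-numbered pairs correlated at r of 0.162 to 0.305 over 15645 genes. Other pairs had a mean r of -0.03, so the numbers were taken to pair the regions. The main fits did not use this pairing, and only the replicate blocks did. For genotype within a region only a random block could be fitted. No 2 libraries were identical. Promoter sequences are from RefSeq, GRCm38.p6, and 26 of the 31 members matched there.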

Additional observations from a re-analysis of the deposited data

Results flagged for a closer look

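Of 186 combinations of a member and a group, 9 held a library whose gap to its nearest neighbour was large for the group's range by Dixon's test at the 95% level, and chance flags about 1 in 20. WT ascending library 3 was the lowest of its group for 3 members: Plxnb1 at 44.3 CPM against 50.3 to 51.2 in the others, Sema5a at 89.5 against 135 to 141, and Sema5b at 0.486 against 1.05 to 1.12. The heart muscle score, the mean log2 CPM of the heart markers, was 5.19 in that library, the highest of its group, and its part was not tested.

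WT descending library 7 was highest for Plxna3 at 8.86 CPM, against 5.59 to 6.09 in the others, and lowest for Sema3c at 309.9 CPM, against 339.8 to 343. The Sema3c genotype difference in descending aorta keeps this library among those above all mutant ones. WT descending library 5 was lowest for Sema6b at 3.26 CPM, against 5.11 to 5.49. Mutant ascending library 8 was highest for Sema3d at 135 CPM, against 114 to 118.

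AGT-ASO library 15 was highest for Sema7a at 3.55 CPM, against 0.731 to 1.31. Control ASO library 8 was highest for Sema3b at 80.6 CPM, against 57.0 to 62.6.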

How the results depend on the processing

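With DESeq2 the members called were 2 by genotype in ascending aorta, 4 in descending aorta, 1 in the interaction and 1 with AGT-ASO, and the genes called were 779, 414, 38 and 289, against 342, 189, 1 and 10 by edgeR. By region DESeq2 called 10 members in mutants and 12 in WT mice, the random block 11 and 13 and the fixed block 11 and 12, against 8 and 11. The interaction called 1 member (Sema3e) with no count filter and with the fixed replicate block, and 6, 5, 2 and 13 genes with no filter, a random replicate block, limma-voom without a block and the fixed block. With no filter AGT-ASO gave 147 genes, and with the heart muscle score ascending genotype gave 143. Leaving out 1 library gave 163 (mutant replicate 2) to 347 genes by genotype in ascending aorta, with 206 without mutant replicate 4, and 128 to 170 genes in descending aorta, with 2 to 3 members there. It gave 1 to 10 genes and 0 to 1 members in the interaction, the 10 without WT ascending replicate 1, 4 without WT descending replicate 5, and 2 without WT ascending replicates 3 or 5, WT descending replicate 1 or mutant descending replicate 4. With AGT-ASO it gave 0 (without AGT-ASO replicates 15, 18 or 19 or control replicates 12, 13 or 16), 1 (without control 17), 9 (without AGT-ASO 20), 40 (without AGT-ASO 14) or 180 genes (without control 8). By region, members called were 6 to 8 in mutants and 8 to 10 in WT mice when 1 library was left out.

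Signs turned for small values that passed no test. Leaving out 1 library, Nrp1 by ascending genotype ranged from -0.12 (without mutant replicate 6) to 0.040 (without mutant replicate 2). Nrp1 by WT region ranged from -0.017 (without descending replicate 7) to 0.13. Plxnd1 ranged from -0.031 (without WT descending replicate 5) to 0.21 in the interaction, and by descending genotype from -0.10 (without WT replicate 3) to 0.14, also below 0 without WT replicate 1 and mutant replicates 6 and 8. With the heart muscle score, AGT-ASO values became 0.16 for Plxnd1, 0.11 for Sema3a and -0.27 for Sema3e. The cause was not tested. The replicate blocks changed no member call other than those given beside the results. Plxnb3, Sema4g and Sema5b, near 1 CPM, and Sema4f, removed by the filter, are limited by depth.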
